A study of Homo sapiens with 2 samples.

Results

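SNAR and BCYRN1 are short RNA genes read by RNA polymerase III, and their recovery in a ribosome profiling library was set beside their level in a total RNA library. The members are the gene rows of the deposited table with a symbol that starts with SNAR- or RN7S, or that is BCYRN1. The rule found 21 of 23608 rows, of which 20 are SNAR rows and 1 is BCYRN1. No row starts with RN7S, so 7SL and 7SK RNA were not analysed here.

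The ribosome profiling library and the RNA sequencing library, 1 of each, came from SW13 cells, an established line labelled as human adrenal adenocarcinoma. Both libraries carry the same treatment: transfection with 5 µg of Add2-Mhrt779 and Add2-Hotair, which overexpress murine non-coding RNAs, and harvest 48 hours later. No library without the transfection was used here, so the comparison is between assays and not between treated and untreated cells. Total RNA was purified by direct lysis, while the ribosome profiling kit keeps RNA fragments that ribosomes cover during nuclease digestion. Library preparation used that kit for both assays, with 50 nt paired reads. Of 8 adrenocortical marker genes, all were listed at 0 in both libraries, NR5A1 and STAR among them. VIM, the intermediate filament vimentin, had 707 FPKM in ribosome profiling and 490 FPKM in RNA sequencing. The other mesenchymal genes listed were far lower, FN1 at 11.7 and 2.96 FPKM and CDH2 at 6.02 and 3.33 FPKM, in the same order. KRT18, a keratin of simple epithelia, had 139 FPKM in ribosome profiling and 57.2 FPKM in RNA sequencing, and KRT8 had 69.7 and 41.9 FPKM. The epithelial genes CDH1 and EPCAM were listed at 0 in both. SMARCA4 had 0.677 FPKM in ribosome profiling and 3.99 FPKM in RNA sequencing, and SMARCA2 had 1.75 and 1.72 FPKM.

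SNAR RNAs are structured transcripts found in African great apes including humans, and they bind double-stranded RNA binding proteins. They fall into subgroups by sequence, written as the letter after the hyphen, and the copies of a subgroup are nearly identical. BCYRN1, also called BC200, is a primate RNA with an Alu-like 5′ domain, an A-rich stretch and a unique 3′ end, best known in neurons as a repressor of translation initiation. 7SL is the RNA scaffold of the signal recognition particle, and 7SK holds the elongation factor P-TEFb inactive.

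Among the members, only SNAR-A had a value above 0 in ribosome profiling. Of the 21 members, 8 were above 0 in ribosome profiling, all of them SNAR-A rows, and 10 were above 0 in RNA sequencing: the same 8 SNAR-A rows, SNAR-G1 and BCYRN1. The other 11 were listed at 0 in both libraries. Levels are in FPKM, a unit scaled by gene length and library depth, as the authors deposited them.

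The SNAR-A rows, of 121 or 122 nt, were among the highest rows of RNA sequencing in FPKM and lower in ribosome profiling. FPKM is scaled by length, so a rank in FPKM does not order genes by number of reads. The length scaling of rows this short was not settled, since their steps, given below, differed by more than their lengths did. SNAR-A8 had 4343.98 FPKM in ribosome profiling and 39809.5 FPKM in RNA sequencing, ranks 60 and 7 of all rows. SNAR-A4 had 4343.98 FPKM in ribosome profiling and 35477.9 FPKM in RNA sequencing. SNAR-A3 had 2895.99 FPKM in ribosome profiling and 31971.4 FPKM in RNA sequencing. Each of these was lower in ribosome profiling, and the ribosome profiling values of SNAR-A8 and SNAR-A4 were equal to the last digit. SNAR-A1 had 2814.68 FPKM in ribosome profiling and 23656.1 FPKM in RNA sequencing. SNAR-A6 had 1447.99 FPKM in ribosome profiling and 12788.5 FPKM in RNA sequencing, and SNAR-A7 had 1447.99 FPKM in ribosome profiling and 9900.81 FPKM in RNA sequencing, so these 2 rows were equal in ribosome profiling as well. SNAR-A12 and SNAR-A13 had the same values as each other, 1407.34 FPKM in ribosome profiling and 5813.79 FPKM in RNA sequencing. The highest ribosome profiling value of any SNAR-A row lay below the lowest RNA sequencing value. These rows are near-identical copies that may share reads, so they are not separate measurements of either assay.

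**Figure D1:**
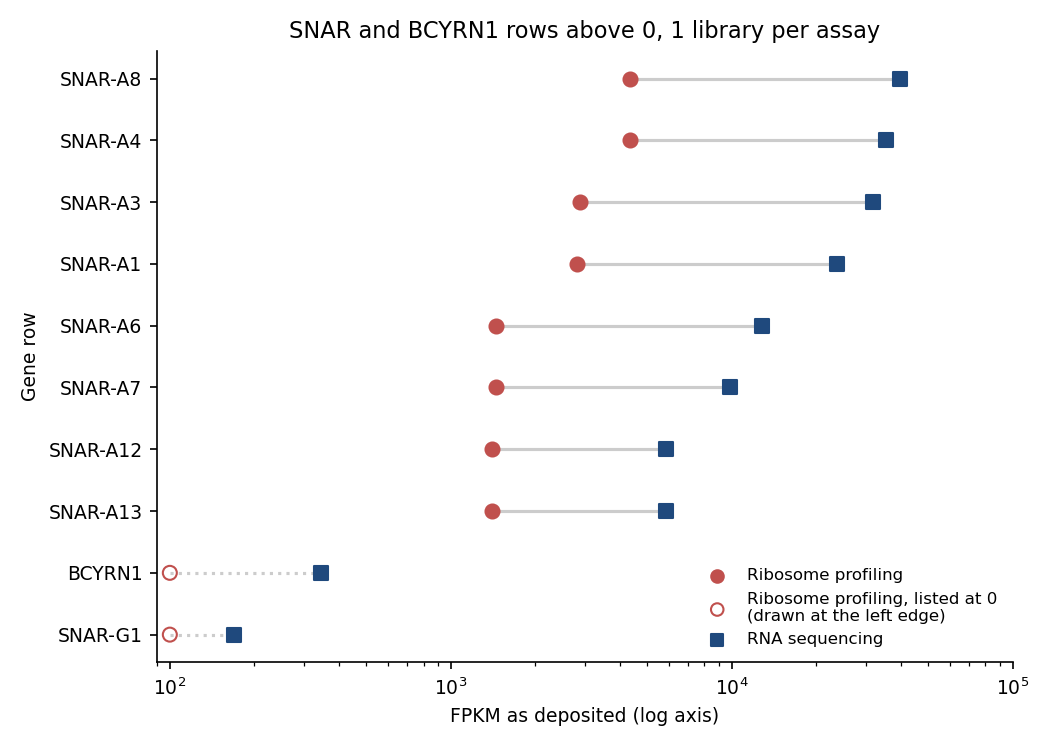
FPKM as deposited (log axis) of the 10 SNAR and BCYRN1 rows above 0, with ribosome profiling as circles and RNA sequencing as squares; open circles mark rows listed at 0 in ribosome profiling. The SNAR-A circles lie between 1407.34 and 4343.98 FPKM, and the SNAR-A squares between 5813.79 and 39809.5 FPKM.

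To set the rows beside the rest of the transcriptome, 1 was added to both FPKM values, the log2 of ribosome profiling over RNA sequencing was taken, and the median of 2734 tested genes was subtracted. A gene was tested where the 2 libraries averaged at least 10 FPKM and the authors' fit had not ended as FAIL or HIDATA. The median tested gene was itself 1.31-fold higher in ribosome profiling as deposited. Of the members, 10 were tested. SNAR-G1 and BCYRN1 passed the minimum through RNA sequencing alone, so their place below was fixed by it; they get no fold, and 4.57% of all tested genes were likewise listed at 0 in ribosome profiling. The 8 SNAR-A rows had at least 10 FPKM in each library, and all 8 were at least 2-fold below the median tested gene. Of all tested genes 19.7% were that far below, and of the 1899 rows with at least 10 FPKM in each library 10.4% were. None of the members was at least 2-fold above, against 13.1% of all tested genes. Small RNA rows were chosen by the start of their symbols, such as SNOR, MIR and RNU. Of 313 tested small RNA rows that are no members, 44.7% lay below by that much and 36.4% lay above by that much. Only 153 of them were above 0 in both libraries, and 23.5% of those lay below by that much. The rest were at 0 in 1 library, which fixed their direction. With 1 library per assay there is no replicate spread and no test of these differences.

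Each of the 8 SNAR-A rows lay 4-fold or more below the median gene, against 9.8% of all tested genes and 2.74% of the rows with at least 10 FPKM in each library; 4.86% of all tested genes were as far above. The rows are near-identical and may share reads, so the 8 cannot be counted as independent genes at either fold. Their median log2 ratio was -3.44, or 10.8-fold below. SNAR-A3 was the lowest at -3.85, or 14.4-fold below, and SNAR-A12 and SNAR-A13 were the highest at -2.43, or 5.41-fold below. Among 2542 tested rows above 0 in both libraries that are no members, 36 had a ratio under the SNAR-A median. The 153 other small RNA rows above 0 in both libraries had a median log2 ratio of 0.25; 23.5% of them lay 2-fold or more below, 11.8% lay 4-fold or more below, and 5 had a ratio under the SNAR-A median.

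**Figure D2:**
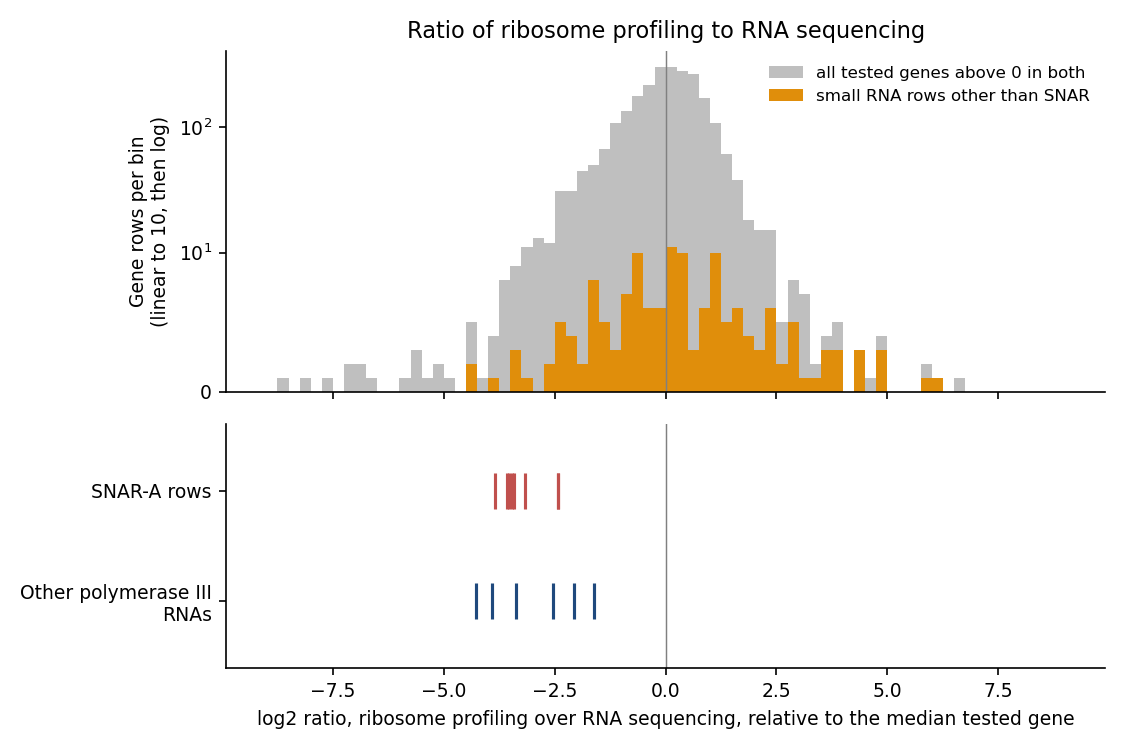
Top, gene rows per bin of the centred log2 ratio for tested genes above 0 in both libraries (3 lie outside the range) and for other small RNA rows; bottom, the 8 SNAR-A rows and 6 other polymerase III RNAs, 1 bar per row. SNAR-A lies from -3.85 to -2.43, to the left of the bulk of both histograms.

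Summed by subgroup, SNAR-A made up nearly the whole family in both assays. The SNAR-A rows summed to 20109 FPKM in ribosome profiling and 165232 FPKM in RNA sequencing, which is 8.22-fold lower as deposited and 10.8-fold below the median gene. SNAR-A was 100% of the SNAR sum in ribosome profiling and 99.9% in RNA sequencing. The 20 SNAR rows held 0.311% of the FPKM of the ribosome profiling library and 8.96% of that of the RNA sequencing library. These are shares of FPKM and not of reads. How reads that match several copies were counted is not given, so the sums may hold the same read more than once. RNA5-8S5, a ribosomal RNA, held 64.7% of the ribosome profiling sum; without that row, a choice made after seeing the data, the SNAR share was 0.883% in ribosome profiling and 9.79% in RNA sequencing.

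SNAR-G, the subgroup that lies among the chorionic gonadotropin beta genes, had 1 row above 0. SNAR-G1, on chromosome 19 from 49540277 to 49540404 in hg19, was listed at 0 in ribosome profiling and had 169.782 FPKM in RNA sequencing. In the authors' deposited table its p was 0.158655, the one-sided normal p of a value equal to its own standard error, and 907 of 3096 rows listed at 0 in ribosome profiling alone have that same p. On that reading the SNAR-G1 value is too uncertain for its 0 in ribosome profiling to set it apart from SNAR-A. SNAR-G2 was listed at 0 in both libraries, as were the 1 row each of SNAR-B, SNAR-D, SNAR-E, SNAR-F, SNAR-H and SNAR-I and the 4 rows of SNAR-C. Because near-identical copies can trade reads, a row at 0 does not show that its copy was silent.

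The SNAR-A values fell on exact steps, which bears on how many reads stand behind them; this was looked for after the values were seen. Among the 5 rows of 121 nt (SNAR-A3, SNAR-A4, SNAR-A6, SNAR-A7 and SNAR-A8), ribosome profiling values were 2, 3, 1, 1 and 3 times 1447.99 FPKM. RNA sequencing values of the same rows were 155, 172, 62, 48 and 193 times 206.3 FPKM. Among the 3 rows of 122 nt (SNAR-A1, SNAR-A12 and SNAR-A13), the steps were 2, 1 and 1 times 1407.34 FPKM in ribosome profiling, and 118, 29 and 29 times 200.5 FPKM in RNA sequencing. All multiples were whole within 0.01, and the RNA sequencing step of the 122 nt rows rests on 1 independent ratio, since SNAR-A12 and SNAR-A13 are equal. The step of the 121 nt rows was 1.029 times that of the 122 nt rows in both libraries, while the lengths differ by a factor of 1.008. Whether a step holds the same number of reads in both length classes was not tested.

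One ribosome profiling step was 7.02 times as large as one RNA sequencing step in each length class. In the authors' deposited table the commonest log2 ratio among 10894 rows above 0 in both libraries was 0.6415, a ratio of 1.56, shared by 390 rows. The next were -0.3585 in 219 rows and 0.0566 in 151 rows, which are 0.5 and 0.667 of that ratio. Of the 390 rows, 122 also had a standard error within 0.001 of 2.04, the Poisson value for 1 read against 1 read. If 1.56 is the ratio for equal numbers of reads, a ribosome profiling step of SNAR-A holds as many reads as 4.50 RNA sequencing steps. The smallest whole numbers that fit are 9 reads for a ribosome profiling step and 2 for an RNA sequencing step. SNORA32, the only other row of these lengths above 0, had 4022 FPKM in ribosome profiling, which is 25 reads on that scale.

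On that scale, and if a step holds the same number of reads in both length classes, the SNAR-A rows would hold 126 reads in ribosome profiling and 1612 in RNA sequencing. SNAR-A8 would have 27 in ribosome profiling and 386 in RNA sequencing, and SNAR-A12 would have 9 in ribosome profiling and 58 in RNA sequencing. The standard errors in the authors' deposited table were 1.99 to 2.18 times the Poisson errors of such reads over the 8 rows. For SNAR-A6 the authors' deposited table gives 1.06, where 9 reads against 124 would give 0.498. At the same proportions, Poisson errors as large as the deposited ones correspond to 1.90 to 2.27 reads for a ribosome profiling step, so the number of reads behind a step was not settled. These are read equivalents inferred from FPKM, and no count file was used. How reads that match several copies were counted is not given in the sources used here, so 126 reads spread evenly over 14 places cannot be told apart from 9 reads counted at each of 14 places. No counting interval is given for that reason.

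**Figure D3:**
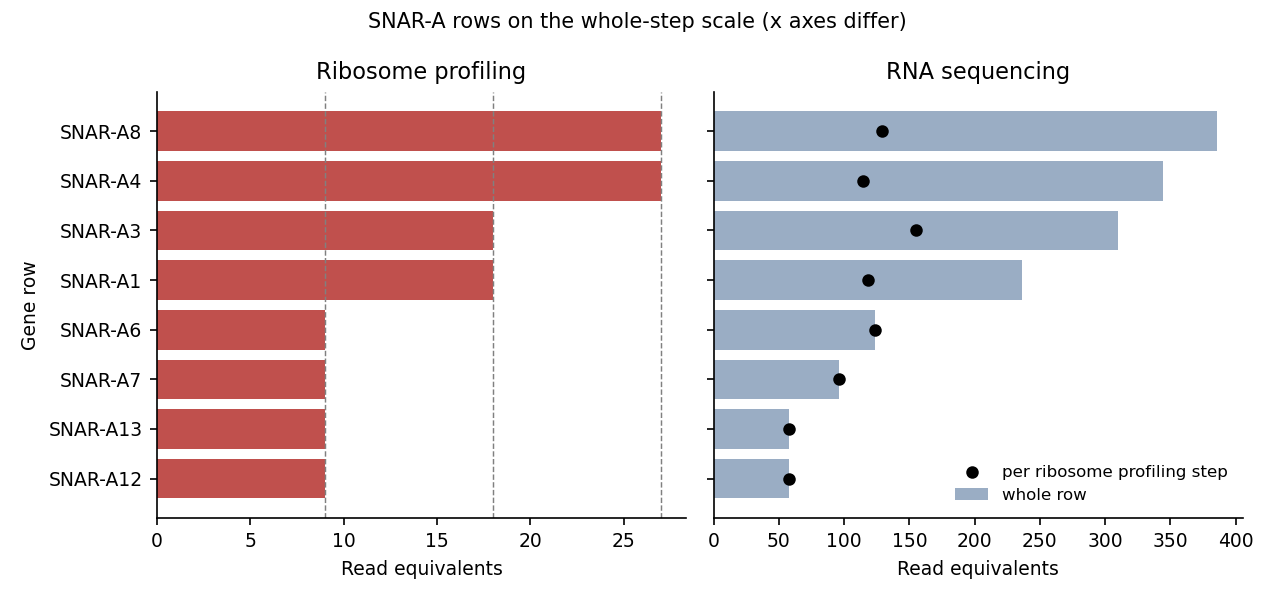
Read equivalents of the 8 SNAR-A rows in ribosome profiling (left; dashed lines at 9, 18 and 27) and RNA sequencing (right; bars for the whole row, dots for the row divided by its number of ribosome profiling steps). The left bars end on the dashed lines, and the right dots lie between 58 and 155.

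The number of steps equalled the number of annotated gene copies, a comparison made after the steps were seen. RefSeq (GRCh38.p14) lists 10 SNAR-A genes of 121 nt and 4 of 122 nt, 14 in all, and the ribosome profiling values came to 10 steps in the 121 nt rows and 4 in the 122 nt rows. All 20 SNAR rows matched a RefSeq symbol and had its length, and 6 SNAR-A symbols of RefSeq had no row of their own among those used here. If a row with 2 or 3 steps stands for 2 or 3 copies, each copy would have 9 read equivalents in ribosome profiling. In RNA sequencing each copy would then have between 58 (SNAR-A12 and SNAR-A13) and 155 (SNAR-A3), a 2.67-fold range, where the FPKM of the rows spanned a 6.85-fold range. The rows with 2 or 3 steps were also the highest SNAR-A rows in RNA sequencing. Dividing by steps therefore narrows the range whether or not rows combine copies, and the narrower range cannot decide this. Whether rows combine copies was not tested.

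Symbol and place went apart in some rows, a comparison also made after the values were seen. In the table the SNAR-A row loci lie in 2 stretches of chromosome 19 in hg19, one from 48410935 to 48448300 (SNAR-A12, SNAR-A1 and SNAR-A13) and one from 50607212 to 50631779 (SNAR-A3, SNAR-A6, SNAR-A7, SNAR-A4 and SNAR-A8). Distances between rows within the table were set beside distances between genes within RefSeq, with no conversion between builds. Of 18 SNAR rows on chromosome 19, 10 lay at the distance from SNAR-D that RefSeq gives for the same symbol, and 8 at the distance of another SNAR gene of the same subgroup. Of these 8, 6 were SNAR-A rows. The SNAR-A8 row lay 11800 bases before SNAR-D, where RefSeq has SNAR-A11, while RefSeq has SNAR-A8 27834 bases before SNAR-D.

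The authors' own test called the SNAR-A rows that had 2 or 3 steps and none of those with 1 step. SNAR-A8 had, in the authors' deposited table, a log2 value of -3.20 ± 0.62 (SE of their model; q = 0.000151), and SNAR-A4 had -3.03 ± 0.62 (q = 0.000339). Also in the authors' deposited table, SNAR-A3 was at -3.46 ± 0.76 (q = 0.00122) and SNAR-A1 at -3.07 ± 0.75 (q = 0.00609). Those 4 called rows stand against 0.887% of the 4849 rows with status OK that were called lower in ribosome profiling, 43 in number; 1.3% were called in either direction. The uncalled rows had standard errors of 1.03 to 1.06 in the authors' deposited table, with q = 0.129 for SNAR-A6, 0.191 for SNAR-A7 and 0.347 for SNAR-A12 and SNAR-A13. Computed with errors of the authors' deposited table, the 95% interval of the log2 ratio ran from -4.95 to -1.98 for SNAR-A3, the lowest row, and from -4.06 to -0.031 for SNAR-A12, one of the 2 highest, so these intervals overlapped. These errors are those of the authors' model and hold no spread between cultures, and near-identical rows may share reads, so the 4 calls cannot be taken as independent.

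BCYRN1 was listed at 0 in ribosome profiling and had 344 FPKM in RNA sequencing, rank 261 of all rows. In the authors' deposited table its p was 0.0193 and its q 0.238, and the row was not called. If that p is one-sided, its normal deviate is 2.07 and the standard error of the RNA sequencing value is 166 FPKM. The one-sided reading is an assumption. Where the authors' deposited table gives a statistic, as for SNAR-A12 (1.99, p = 0.0465), the p is two-sided. The table places the row on chromosome X, in a span from 70430035 to 70948962 in hg19 that it gives to 11 other rows as well, while RefSeq and GENCODE place the gene on chromosome 2 in GRCh38. Of those 11 rows, 4 were above 0 in ribosome profiling. NONO, a paraspeckle protein gene of that span, had 81.0 FPKM in ribosome profiling and 52.3 FPKM in RNA sequencing, and OGT, which adds O-linked N-acetylglucosamine to proteins, had 5.65 FPKM in ribosome profiling and 14.8 FPKM in RNA sequencing. Whether the BCYRN1 value comes from its chromosome 2 gene or from a similar Alu-derived sequence was not tested.

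Other polymerase III RNAs were also lower in ribosome profiling. Of 8 tested rows, RNY4 and VTRNA1-3 were listed at 0 in ribosome profiling and passed the minimum through RNA sequencing alone. The 6 others lay 2-fold or more below the median gene, with a median log2 ratio of -2.96. Of all tested genes 19.7% were that far below, and of rows with at least 10 FPKM in each library 10.4% were. Of the 153 small RNA rows outside the members and above 0 in both libraries, which include these 6, 23.5% were. VTRNA1-2, a vault particle RNA, had 14023 FPKM in ribosome profiling and 205821 FPKM in RNA sequencing, 19.2-fold below the median gene. VTRNA1-1 had 2333 FPKM in ribosome profiling and 26708 FPKM in RNA sequencing, 14.98-fold below. RPPH1, the RNA of ribonuclease P, had 1310 FPKM in ribosome profiling and 10417 FPKM in RNA sequencing, 10.4-fold below, and RMRP, the RNA of ribonuclease MRP, had 3377 FPKM in ribosome profiling and 15104 FPKM in RNA sequencing, 5.85-fold below. RNY5, a Y RNA, had 124864 FPKM in ribosome profiling and 400225 FPKM in RNA sequencing, 4.20-fold below. The table gives RNY5 a span of 267371 bases on chromosome 12 and RNY4 34 bases on chromosome 6, while RefSeq has RNY5 at 84 nt and RNY4 at 96 nt, both on chromosome 7, so which loci these values come from was not settled. RNU6ATAC, of the minor spliceosome, was 3.08-fold below. VTRNA1-2 was the 1 row of the list with a call in the authors' deposited table (q = 0.0208). The 8 SNAR-A ratios lay inside the range of these RNAs, and no difference between them was tested.

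Of 6 genes listed for double-stranded RNA binding proteins, 3 were tested and none was 2-fold higher or lower, where 13.1% of all tested genes were higher and 19.7% lower by that much. Their median log2 ratio was 0.12, which turned to -0.059 at a minimum of 30 FPKM. The nuclear factor ILF2 had 51.3 FPKM in ribosome profiling and 35.9 FPKM in RNA sequencing. The RNA helicase DHX9 had 27.3 FPKM in ribosome profiling and 17.3 FPKM in RNA sequencing. ADAR, which edits adenosine to inosine in double-stranded RNA, had 13.5 FPKM in ribosome profiling and 14.1 FPKM in RNA sequencing. None of the 3 was called in the authors' deposited table.

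Of the signal recognition particle proteins and receptor, 5 of 8 were tested, with a median log2 ratio of 0.28, none 2-fold higher and 1 lower, against shares of 13.1% and 19.7% over all tested genes. SRP9 and SRP14 form the heterodimer that binds the Alu domain of 7SL and of BC200. SRP14 had 92.6 FPKM in ribosome profiling and 44.4 FPKM in RNA sequencing, and SRP9 had 11.6 FPKM in ribosome profiling and 25.3 FPKM in RNA sequencing, 2.72-fold below the median gene. SRPR, of the receptor, had 16.6 FPKM in ribosome profiling and 10.0 FPKM in RNA sequencing.

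Of the BC200 binding and translation control list, 8 of 10 rows were tested, with a median log2 ratio of -0.43. None was 2-fold higher and 3 were lower, where 13.1% of all tested genes were higher and 19.7% lower. PABPC1, the poly(A) binding protein that also binds the A-rich stretch of BC200, had 43.0 FPKM in ribosome profiling and 186 FPKM in RNA sequencing, 5.57-fold below the median gene. PABPC4 and EIF4B were the other 2, at 2.81-fold and 2.34-fold below. EIF4A1, the helicase of translation initiation that BC200 is known to inhibit, had 332 FPKM in ribosome profiling and 160 FPKM in RNA sequencing, and HNRNPA2B1, a BC200 binding protein, had 112 FPKM in ribosome profiling and 59.4 FPKM in RNA sequencing. None of the list was called in the authors' deposited table, where the log2 ratio of PABPC1 was -2.11 ± 1.09 (SE of their model; q = 0.362).

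Of 28 genes of RNA polymerase III, its factors and La, 3 were tested, with 2 at least 2-fold higher (13.1% of all tested genes) and 1 lower (19.7%). Their median log2 ratio was 1.58, but 0.40 at a minimum of 1 FPKM and 0.21 with no minimum. SSB, which encodes La, the protein that binds the 3′ ends of new polymerase III transcripts, had 65.6 FPKM in ribosome profiling and 16.0 FPKM in RNA sequencing, 2.99-fold above the median gene. SNAPC5, of the snRNA promoter complex, had 17.6 FPKM in ribosome profiling and 3.33 FPKM in RNA sequencing. MAF1, the polymerase III repressor, had 7.70 FPKM in ribosome profiling and 13.4 FPKM in RNA sequencing. Both reached 10 FPKM only in the library where they were higher, so the minimum favoured their direction. Of the 3, only SSB had at least 10 FPKM in each library. SNAPC5 had a log2 value of 2.40 ± 1.41 (SE of their model, q = 0.422) in the authors' deposited table. SSB had a log2 value of 2.03 ± 0.88 (SE of their model; q = 0.246) in the authors' deposited table and was not called. None of the 7 genes for the 7SK particle and P-TEFb reached a mean of 10 FPKM; CDK9, the kinase that 7SK holds inactive, had 6.48 FPKM in ribosome profiling and 9.77 FPKM in RNA sequencing.

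**Figure D4:**
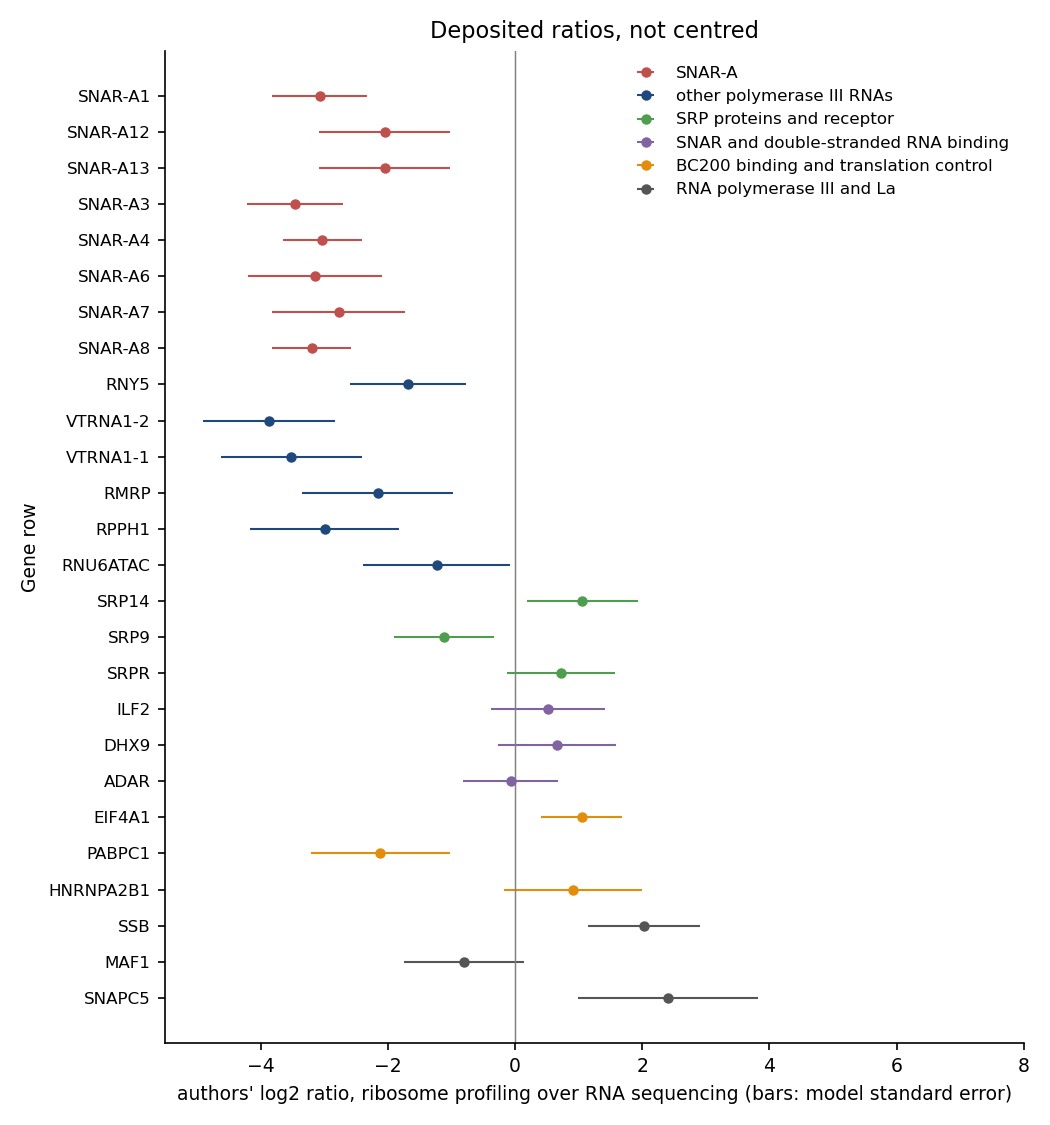
Ribosome profiling over RNA sequencing on a log2 scale, from the authors' deposited table, not centred, with bars for the standard error of the authors' model, for SNAR-A, other polymerase III RNAs above 0 in both libraries and named partner genes. The 8 SNAR-A rows lie between -3.46 and -2.05, and the partner genes between -2.11 for PABPC1 and 2.40 for SNAPC5.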

How the data were processed

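One table was used, with 1 ribosome profiling and 1 RNA sequencing library of SW13 cells. It holds FPKM values per gene row as deposited by the authors, their log2 fold of the first over the second, its statistic, and the authors' p-value and q-value. Builds hg19 and mm10 and the tools bedtools 2.16.1, SAMtools 0.1.18, Bowtie2 2.0.0.6 and TopHat2 2.0.8b are listed, without their roles, per the submitters' processing notes. What program made the table, and how it counted reads with several matches, is not given in the sources used here. Deposited starts, which count from 0, were raised by 1. Read depth is unknown from the FPKM alone. Whole steps were sought within a tolerance of 0.01, and the search recovered a known step from simulated exact multiples. How often values without a step would pass the search was not tested. The standard error of a deposited ratio is the ratio over its statistic. Ratios used a pseudocount of 1 FPKM, which understates low genes. With 1 library per assay no test was run. Every member is described; partner lists are named by their 3 most abundant genes and the 2 extreme ratios among tested rows, and rows at the BCYRN1 span may be named. CDK9, PABPC4 and EIF4B were named after their values were seen, and the 1.5-fold limit for a moved value, the step search and the share without RNA5-8S5 were set then too. Members and lists were chosen with earlier results of these data known. One gene of the double-stranded RNA binding list and member sequences are not reported here. Python 3.11.15, pandas 2.3.3 and numpy 2.4.6 were used.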

Additional observations from a re-analysis of the deposited data

How the results depend on the processing

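Of 146 recomputed values over 23 results and 12 settings, 141 stayed within 1.5 times of the value reported. One list median changed sign: that of the double-stranded RNA binding list, 0.12, was -0.059 at a minimum of 30 FPKM. The settings were pseudocounts of 0.1 and 5 FPKM, a minimum mean of 1 or 30 FPKM or none at all, rows with status OK, other or no centring, other ways of summing subgroups, and the library sum without RNA5-8S5, which was added after seeing the data. The count of tested members at least 2-fold below stayed at 10 under each of the 8 settings that bear on it, but 2 of these, at 0 in ribosome profiling, could only count as below. The ratio of the SNAR-A sum ran from -3.60 to -2.88 and that of single SNAR-A rows from -4.03 to -1.89. The median of the polymerase III and La list was 1.58, but 0.40 at a minimum of 1 FPKM and 0.21 at none, where more of its members enter. The median of other polymerase III RNAs, -3.64 with rows at 0 included, was -2.99 without the minimum. SNAR-G took 0.103% of the SNAR sum in RNA sequencing and 0.409% when rows were averaged first. The SNAR share of ribosome profiling was 0.311%, and 0.883% without RNA5-8S5. No paired analysis was possible because each assay has 1 library. SNAR-A rows had 1 to 3 steps in ribosome profiling, and rows at 0 there have no fold.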

Other observations

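Some of the chorionic gonadotropin beta genes beside SNAR-G had equal values in pairs. CGB1 and CGB2 each had 3.26 FPKM in ribosome profiling and 2.09 FPKM in RNA sequencing, and CGB5 and CGB7 each had 2.55 and 1.63 FPKM. CGB8 had 2.52 and 1.62 FPKM and CGB had 2.41 and 1.55 FPKM, and none of them reached a mean of 10 FPKM. In the authors' deposited table all 6 had the log2 ratio 0.641546, the commonest in the table, with a standard error of 2.04, the error that Poisson counting gives for 1 read against 1 read. LHB and NTF4 were listed at 0 in both libraries.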
